A study of Mus musculus with 20 samples.

Results

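Genes of the mitotic cell cycle were followed in sorted liver macrophages. The group holds 41 genes with textbook roles in mitosis, given by symbol. The rule uses no measured value, but the list was drawn up with earlier results of these data known. In the deposited expression table, which has 59311 genes, 40 of the 41 had a row of their own. Plk1 appears only in a row shared with Dctn5, whose reads cannot be split, and was not analysed. Of the 40 measured members, 39 reached the minimum level for testing, a mean normalized count of 10 in at least 1 of the 4 groups, and Nek2 did not.

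The libraries came from 10 male C57BL/6 mice (substrain C57BL/6 JRj), aged 10 to 12 weeks, with liver fibrosis induced by CCl4 (0.6 ml/kg, 2 injections per week for 4 weeks). Ac-6-FP, a folate derivative that binds the antigen-presenting molecule MR1 and keeps mucosal-associated invariant T (MAIT) cells from being activated, was given to mice 16 to 20 at 0.25 mg/kg, 2 h before the last CCl4 injection and then daily for 2 days. Mice 11 to 15 received the vehicle, 1% DMSO in saline, on the same schedule, so that all mice, the controls included, carried the CCl4 injury and no uninjured liver was measured. From each liver about 30000 monocyte-derived macrophages (MoMac) with high (Ly6Chi) and with low (Ly6Clo) surface Ly6C were sorted among CD11b and F4/80 positive cells negative for Ly6G, CD11c and CD3, which gave 20 RNA sequencing libraries, 5 in each of the 4 groups of subset and treatment. Values are normalized counts, that is reads on a gene divided by a size factor of the library, and are not divided by gene length, so that levels are compared between libraries and not between genes.

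Mitosis is driven by cyclin-dependent kinase 1 (Cdk1) bound to A- and B-type cyclins, with the Aurora and Polo-like kinases. Kinetochores assembled on centromeres attach chromosomes to the spindle, the spindle checkpoint (Bub1, Bub1b, Mad2l1, Ttk) holds the anaphase-promoting complex back until all are attached, and central spindle proteins then guide cytokinesis. Most of these genes are transcribed late in the cycle and are close to silent in resting cells, which is why they serve as a readout of proliferation. Ly6Chi monocytes leave the bone marrow shortly after the last divisions of their progenitors, and tissue macrophages can divide locally.

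The 20 libraries held between 5693049 and 18682437 reads on genes. Genes above 0 numbered from 5343, in the Ly6Clo vehicle library of mouse 13, to 15766. Many values were exactly 0, also for Polr2a, a gene every cell uses, which was at 0 in 9 libraries. Members are therefore said to be listed at 0, which allows up to 3 reads, and are given library by library. Of the 400 member values per subset, 21.2% were 0 in Ly6Chi and 47.8% in Ly6Clo MoMac. The labels could be checked against markers: all 8 genes of a Ly6C-high monocyte list were higher in Ly6Chi MoMac. The Ly6Clo libraries also held genes of other cell types, although the gate was negative for CD3, CD11c and Ly6G. The summed level of T and NK cell genes was 45161 to 99154 normalized counts in Ly6Clo and 0 to 1478 in Ly6Chi libraries, and that of dendritic cell genes 7730 to 19407 and 205 to 1017. Neutrophil genes summed to 10612 to 133307 in Ly6Clo, highest in mouse 20, and to 9154 to 15701 in Ly6Chi libraries.

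The first question was whether mitotic genes differed between the subsets of the same liver. Members were listed at higher levels in Ly6Chi MoMac across all roles, apart from the CDK-binding protein Cks2 and from Foxm1, which was at 0 in nearly all libraries. Of the 39 tested members 7 rose past the threshold, where 1.76% of all 17248 genes tested did so in that direction. These were Bub1 and Ttk, kinases of the spindle checkpoint, Cdca3, an activator of mitotic entry, the cyclins Ccnb2 and Ccnf, Cdca8, a subunit of the chromosomal passenger complex, and Spc25, a subunit of the NDC80 complex of the kinetochore. No member fell, against 3.44% of all genes. The median log2 difference of the members was 2.72, against -0.03 over all genes tested (limma on the within-mouse difference of log2(normalized count + 1), adjusted p under 0.05). With many values at 0, a difference on this scale depends on how many libraries are at 0 and is not a ratio of means: the edgeR value was smaller for 15 of the 39 members and larger for 24. Ccna2, Ttk and Kif2c reached the minimum level only through Ly6Chi groups and so had to be higher there, and of the other 36 members 6 rose past the threshold, with a median of 2.66.

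The summed level of the 40 members was higher in the Ly6Chi than in the Ly6Clo library in 9 of 10 mice. In Ly6Chi MoMac of mice 11 to 15, which received vehicle, the sums were 5174, 13339, 7072, 10908 and 5956 normalized counts, and in those of mice 16 to 20, which received Ac-6-FP, they were 11417, 13449, 13792, 13931 and 25881. In Ly6Clo MoMac the sums were 5789, 2902, 2181, 1739.9 and 3516 in mice 11 to 15 and 2232, 4718, 3764, 3374 and 5867 in mice 16 to 20. The ratio of Ly6Chi to Ly6Clo lay between 1.69 in mouse 15 and 6.27 in mouse 14, with mouse 11 the exception at 0.894. The Ly6Chi library of mouse 20 stood highest, and held the highest value of all 20 libraries for 22 of the 40 members. As a share of all reads on genes, the members took 0.0428% to 0.216% in Ly6Chi and 0.0137% to 0.0436% in Ly6Clo libraries.

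More members were detected in Ly6Chi MoMac of every mouse, although more genes in all were detected in the Ly6Clo library of 9 of the 10 mice. Between 20 and 40 members were above 0 in Ly6Chi libraries, with a median of 33.5, and between 4 and 34 in Ly6Clo libraries, with a median of 22.5. In 37 of the 40 members more libraries were listed at 0 in Ly6Clo than in Ly6Chi MoMac and in 0 members the reverse held, where 33.7% and 32.7% of all genes tested fell on either side. In bulk samples, fewer dividing cells and less of these RNAs per cell cannot be told apart.

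**Figure D1:**
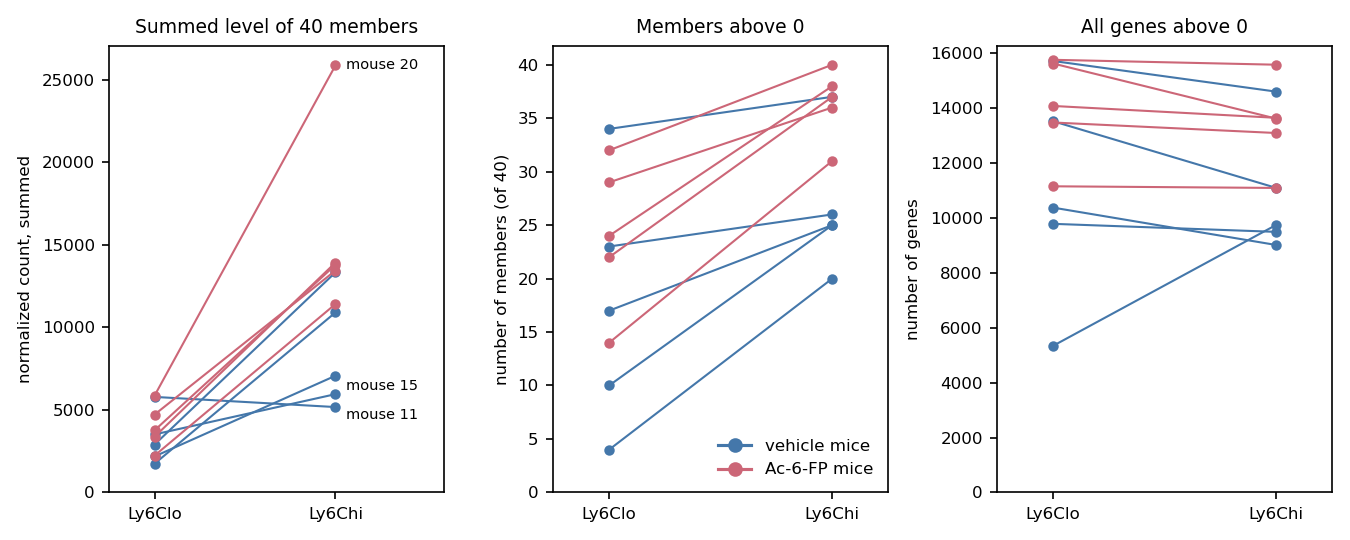
Summed normalized count of the 40 members (left), number of members above 0 (middle) and number of all genes above 0 (right) in the Ly6Clo and Ly6Chi library of each mouse, each line being 1 mouse (blue, vehicle; red, Ac-6-FP). The sums rose from Ly6Clo to Ly6Chi in 9 of 10 mice, with mouse 11 the exception and mouse 20 the highest, and members above 0 rose in all 10, whereas genes above 0 were fewer in Ly6Chi in 9.

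**Figure D2:**
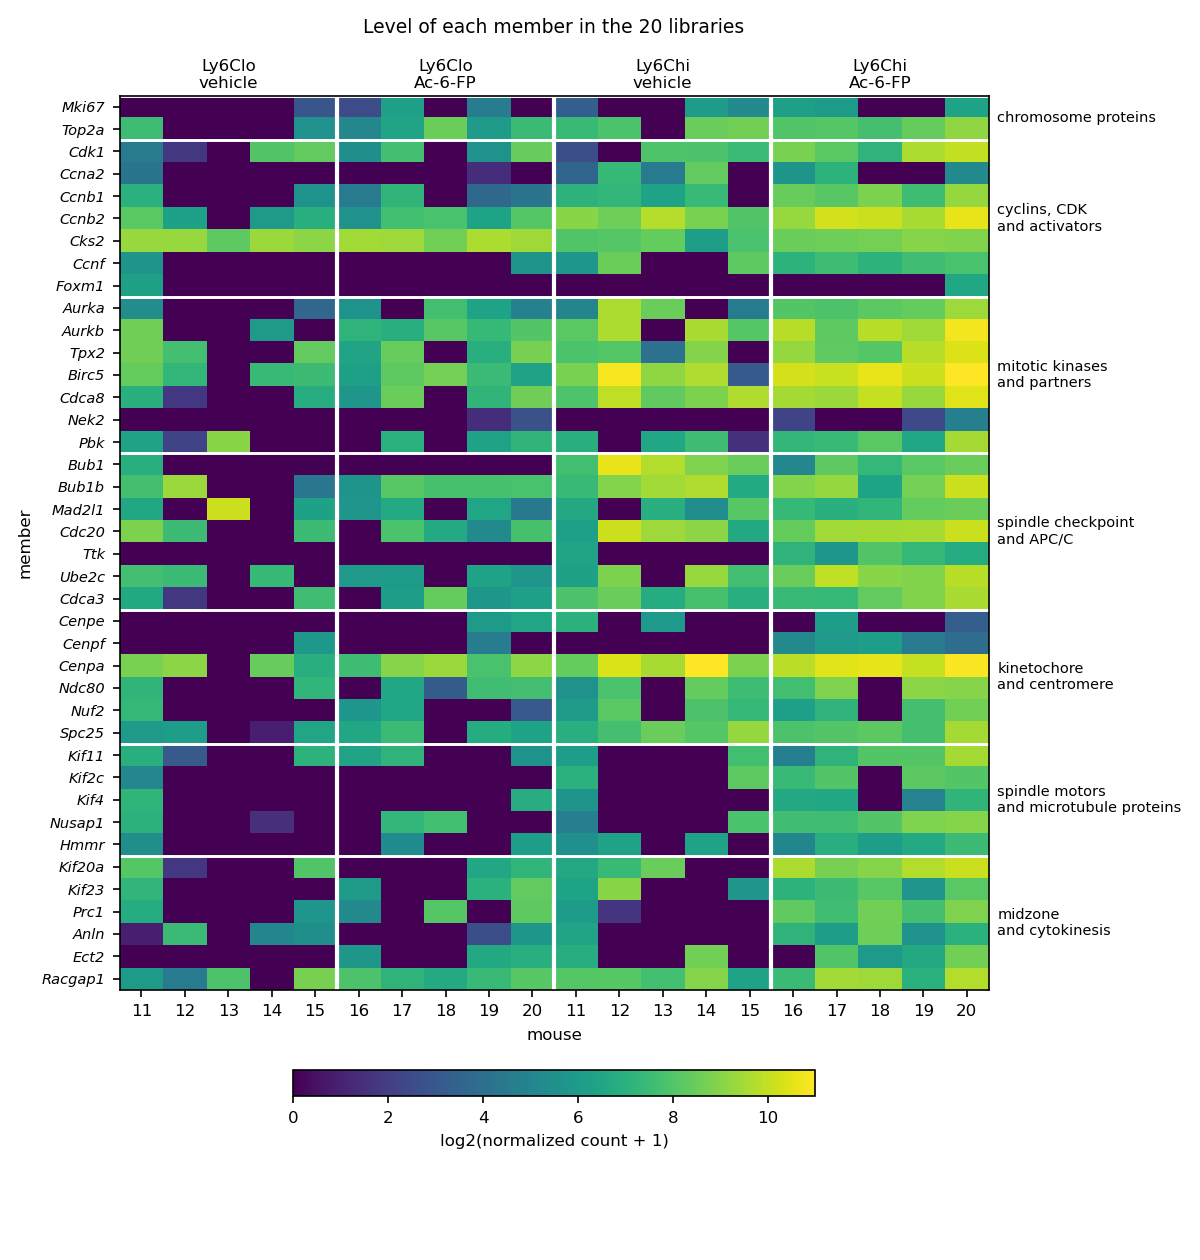
Level of each of the 40 measured members, as log2(normalized count + 1), in the 20 libraries, in columns by group and mouse and in rows by role, the darkest colour marking 0. Dark cells are most frequent in Ly6Clo vehicle libraries, where 112 of 200 values were 0, and least frequent in Ly6Chi Ac-6-FP libraries, where 18 of 200 were.

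Promoters are shown for the 7 members that rose in Ly6Chi MoMac, for Cenpf, which rose with Ac-6-FP, and for Cks2, the member listed lower in Ly6Chi MoMac, since late cell cycle promoters share known elements: the cell cycle homology region (CHR, here the letters TTTGAA or TTCGAA) and CCAAT boxes, which bind the factor NF-Y. The stretches run from 100 bases before to 30 after the RefSeq start (GRCm38.p6), are written 5′ to 3′ on the gene's strand, and have every match of these letters on either strand in capitals (TTCAAA and ATTGG being the other strand of TTTGAA and CCAAT, while TTCGAA reads the same on both).
Bub1, chr2:127831830-127831959, minus strand: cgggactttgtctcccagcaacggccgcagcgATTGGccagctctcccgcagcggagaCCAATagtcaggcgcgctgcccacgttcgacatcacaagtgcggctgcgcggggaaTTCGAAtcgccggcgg
Ttk, chr9:83834589-83834718, plus strand: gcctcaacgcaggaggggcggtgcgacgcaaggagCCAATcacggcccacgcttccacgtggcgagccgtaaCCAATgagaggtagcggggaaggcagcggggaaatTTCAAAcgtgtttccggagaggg
Cdca3, chr6:124830076-124830205, plus strand: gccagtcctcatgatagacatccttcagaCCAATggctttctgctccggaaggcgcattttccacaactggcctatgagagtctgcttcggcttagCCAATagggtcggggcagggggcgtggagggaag
Ccnb2, chr9:70421525-70421654, minus strand: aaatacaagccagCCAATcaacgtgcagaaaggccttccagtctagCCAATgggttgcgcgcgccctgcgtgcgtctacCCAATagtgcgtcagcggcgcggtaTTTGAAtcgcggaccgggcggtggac
Ccnf, chr17:24251380-24251509, minus strand: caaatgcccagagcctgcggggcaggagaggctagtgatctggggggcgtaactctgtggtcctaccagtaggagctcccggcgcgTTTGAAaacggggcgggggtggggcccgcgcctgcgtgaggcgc
Cdca8, chr4:124936888-124937017, minus strand: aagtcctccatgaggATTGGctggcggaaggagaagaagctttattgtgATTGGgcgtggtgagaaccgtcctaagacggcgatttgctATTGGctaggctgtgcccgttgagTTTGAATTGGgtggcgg
Spc25, chr2:69206184-69206313, minus strand: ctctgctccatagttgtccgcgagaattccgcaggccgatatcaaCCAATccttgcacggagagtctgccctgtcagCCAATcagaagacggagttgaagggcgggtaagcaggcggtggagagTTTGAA
Cenpf, chr1:189688057-189688186, minus strand: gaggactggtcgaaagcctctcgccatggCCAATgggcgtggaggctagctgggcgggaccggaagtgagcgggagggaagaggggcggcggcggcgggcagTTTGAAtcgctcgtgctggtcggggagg
Cks2, chr13:51645132-51645261, plus strand: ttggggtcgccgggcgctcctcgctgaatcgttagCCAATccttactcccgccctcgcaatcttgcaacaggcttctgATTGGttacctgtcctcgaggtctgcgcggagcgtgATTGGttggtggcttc
Each stretch except those of Cdca3 and Cks2 holds CHR letters, close to the start, and each except that of Ccnf holds CCAAT. For Cdca3 and Ccnf this depends on where the stretch was cut. Counted in bases from the start, Cdca3 has TTTGAA at 30, and Ccnf has CCAAT at -107 and -147, all just outside the stretch. Cks2 had no CHR letters in the longer window described below either. In Cdca8 the CHR letters overlap an ATTGG.

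RefSeq promoters were found for 34 of the 40 members, with 36 windows from 250 bases before to 50 after a start. CHR letters stood in 28 of the 36 windows, 77.8%, against 19.2% of all 32851 windows in the table. CCAAT stood in 29 windows, 80.6% against 37.4%, 2 or more copies in 61.1% against 11.7%, and both kinds of element in 69.4% against 7.52%. Of the 39 CHR matches in member windows, 27 lay within 50 bases of the start, on either side of it. The 100 bases before the start, without those after it, held CHR letters in 22.2% of member windows, against 6.13% of all. A further 75 measured mitotic genes, listed by role alone, had 68 windows, of which 63.2% held CHR letters and 66.2% CCAAT. A match is a description of the letters and not of a bound site.

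Among cyclins, Cdk1 and their activators, Ccnb2, a B-type cyclin, rose in Ly6Chi MoMac of all 10 mice. It was listed at 514, 381, 876, 432, 256, 617, 1183, 1090.3, 741 and 1555 normalized counts in the Ly6Chi libraries of mice 11 to 20. In their Ly6Clo libraries it stood at 287, 76.8, 0, 59.6, 116, 49.2, 203, 225, 82.2 and 275. Apart from the Ly6Chi library of mouse 15 all Ly6Chi levels lay above all Ly6Clo levels, and the log2 difference was 3.10 (SE 0.73, limma adjusted p = 0.0254).

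Ccnf encodes cyclin F, which directs proteins to ubiquitin ligation. Its levels were 54.0, 364, 0, 0, 305, 135, 187, 135, 193 and 229 normalized counts in Ly6Chi MoMac of mice 11 to 20. In Ly6Clo MoMac it was above 0 only in mice 11 and 20, at 50.6 and 51.0 normalized counts. The log2 difference was 4.83 (SE 1.13, limma adjusted p = 0.0250), positive in 8 mice and negative in 0.

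Ccnb1, the other B-type cyclin of mitotic entry, stood at 138, 155, 81.2, 173, 0, 345, 282, 452, 189.9 and 608 normalized counts in Ly6Chi MoMac. Its Ly6Clo levels were 128, 0, 0, 0, 47.3, 22.7, 146, 0, 12.0 and 17.6. It was higher in Ly6Chi MoMac in 9 mice, but the log2 difference of 3.82 (SE 1.25) did not pass the threshold (limma adjusted p = 0.118).

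Ccna2, the A-type cyclin of S phase and early mitosis, was listed at 10.6, 164, 22.9, 323, 0, 49.96, 137, 0, 0 and 37.3 normalized counts in Ly6Chi MoMac. In Ly6Clo MoMac it was above 0 in mouse 11, at 17.5, and in mouse 19, at 1.71. The difference of 3.62 (SE 1.12) missed the threshold (limma adjusted p = 0.0950).

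For Cdk1, the kinase itself, the Ly6Chi values were 5.31, 0, 246, 243, 180.0, 432, 286, 139.7, 786 and 992 normalized counts. The Ly6Clo values were 22.1, 2.48, 0, 259, 328, 43.5, 208, 0, 48.0 and 340.4, and both subsets overlapped broadly. It was higher in Ly6Chi MoMac in 6 mice, 5 of them with Ac-6-FP (log2 difference 1.97, SE 1.03, limma adjusted p = 0.360).

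Foxm1, the transcription factor of many G2/M genes, was listed at 0 in 18 of the 20 libraries and gives no comparison. Its values above 0 were 92.4 normalized counts in Ly6Chi MoMac of mouse 20 and 75.4 in Ly6Clo MoMac of mouse 11, which were also the libraries with the highest summed level of the members among the Ly6Chi libraries and among the Ly6Clo vehicle libraries.

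Cks2, a small subunit bound to cyclin-dependent kinases, was the only member above 0 in all 20 libraries and the only one with a negative difference. Its levels were 251, 268, 337, 69.6, 224, 365, 374, 416, 511 and 473 normalized counts in Ly6Chi MoMac. In Ly6Clo MoMac they were 619, 631, 301, 649.9, 529, 703, 669.6, 394, 788 and 683, higher in 8 of 10 mice. The log2 difference of -0.97 (SE 0.34) did not pass the threshold with limma (adjusted p = 0.149) and did with DESeq2 (adjusted p = 0.0244). Without Cks2 the ratio of the members' sums exceeded 1 in the same 9 mice, and was 0.952 in mouse 11.

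Among mitotic kinases and their partners, the summed level was higher in Ly6Chi MoMac of all 10 mice, and the chromosomal passenger complex had 3 measured members in this group. Cdca8 (borealin) was listed at 246, 974, 318, 455, 826, 729, 641, 1026, 619 and 1374 normalized counts in Ly6Chi MoMac. Its Ly6Clo levels were 124, 2.48, 0, 0, 113, 52.0, 358, 0, 146 and 382. Within each mouse the Ly6Chi level was higher, by a log2 difference of 4.77 (SE 1.03, limma adjusted p = 0.0157).

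Aurkb, the kinase of that complex, stood at 284, 802, 0, 766, 268, 893, 305, 881, 675 and 1742 normalized counts in Ly6Chi MoMac. In Ly6Clo MoMac its levels were 391, 0, 0, 58.7, 0, 141, 117, 281, 162 and 261. It was higher in Ly6Chi MoMac in 8 mice and lower in mouse 11 (log2 difference 3.14, SE 0.95, limma adjusted p = 0.0872).

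Birc5 (survivin), the third of them, was listed at 435, 1884, 570.0, 813, 7.91, 1239, 1069, 1585, 1122 and 2019 normalized counts in Ly6Chi MoMac. The Ly6Clo levels were 333, 151, 0, 175, 184, 73.8, 307, 409, 177 and 79.8. Only mouse 15 went the other way, and the difference of 2.61 (SE 0.96) did not pass the threshold (limma adjusted p = 0.175). Incenp, the scaffold of the complex and not a member, rose by 3.63 (SE 0.89, limma adjusted p = 0.0330).

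Of the other kinases and partners, Aurka, its activator Tpx2 and Pbk had log2 differences of 3.62, 1.97 and 2.36, none past the threshold. Nek2, a centrosome kinase, was above 0 in 3 Ly6Chi and 2 Ly6Clo libraries, all of them from Ac-6-FP mice, at 1.71 to 25.3 normalized counts.

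In the spindle checkpoint, Bub1 had the largest log2 difference of the members on the log2(normalized count + 1) scale, whereas with DESeq2 that of Kif2c was larger (13.70 against 10.25). It was listed at 202, 1556, 830.4, 460.2, 356, 32.5, 309, 158, 288 and 350.2 normalized counts in Ly6Chi MoMac. In Ly6Clo MoMac it was at 0 in 9 of 10 mice and at 120.5 in mouse 11. The log2 difference was 7.57 (SE 0.90, limma adjusted p = 0.000180) and positive in all 10 mice (exact sign-flip test, two-sided p = 0.00195, the smallest that 10 mice allow).

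Ttk (Mps1), the kinase that starts the checkpoint signal, was at 0 in all 10 Ly6Clo libraries. Its Ly6Chi levels were 83.2, 0, 0, 0, 0, 141, 53.2, 256, 158 and 107 normalized counts, so that all 5 Ac-6-FP mice and only mouse 11 of the vehicle mice were above 0. The mean in Ly6Chi MoMac was 23.9-fold the mean limit that 3 reads set in the Ly6Clo libraries, a limit of counting error only (log2 difference 4.14, SE 1.07, limma adjusted p = 0.0440). Since Ttk was tested only because of its Ly6Chi levels, this call is no independent support.

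Cdca3, which promotes mitotic entry and is degraded through the anaphase-promoting complex, stood at 242, 352, 110.3, 220.4, 117, 174, 161, 326, 473 and 759 normalized counts in Ly6Chi MoMac. Its Ly6Clo levels were 100.2, 2.48, 0, 0, 194, 0, 67.3, 336, 55.7 and 77.0. It was higher in Ly6Chi MoMac except in mice 15 and 18, with a log2 difference of 3.68 (SE 0.96, limma adjusted p = 0.0453).

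The other checkpoint and anaphase genes did not pass the threshold. Bub1b, the checkpoint protein BubR1, had a log2 difference of 2.71, and Mad2l1, its partner in the complex that inhibits Cdc20, of 1.91. Cdc20, the activator of the anaphase-promoting complex, and Ube2c, its ubiquitin-conjugating enzyme, had differences of 3.69 and 3.16. Mad2l1 reached its highest level, 1123 normalized counts, in the Ly6Clo library of mouse 13, the library with the fewest genes.

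At the kinetochore and centromere, Spc25 was listed at 118, 216, 354, 274, 600.4, 244, 264, 292, 214 and 727 normalized counts in Ly6Chi MoMac. In Ly6Clo MoMac it stood at 60.7, 68.1, 0, 0.89, 90.7, 94.6, 179, 0, 110.5 and 81.6, below the Ly6Chi value of the same mouse in all 10. The log2 difference was 3.51 (SE 0.93, limma adjusted p = 0.0487), just under the threshold.

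The other subunits of the NDC80 complex among the members, Nuf2 and Ndc80, had differences of 3.66 and 2.45, and Cenpa, the histone variant that marks centromeres, of 2.39 with 9 of 10 mice positive. Cenpe and Cenpf, large proteins of the outer kinetochore, were at 0 in 14 and 13 of 20 libraries, with differences of 1.00 and 1.52. None of these 5 passed the threshold.

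The spindle motors and microtubule proteins Kif2c, Hmmr, Nusap1, Kif4 and Kif11 had log2 differences of 4.19, 3.36, 3.02, 1.69 and 1.50, none past the threshold. Kif2c, a depolymerase that corrects wrong attachments, was above 0 in 6 Ly6Chi libraries, at 127 to 306 normalized counts, and in 1 Ly6Clo library, at 33.1 in mouse 11. Kif11, the motor that separates spindle poles, was above 0 in 7 and 6 libraries.

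Genes of the midzone and of cytokinesis, Kif20a, Kif23, Ect2, Racgap1, Prc1 and Anln, had log2 differences of 3.80, 2.92, 2.53, 1.79, 1.46 and 1.35, and none passed the threshold. Kif20a, a central spindle motor, ranged from 0 to 1109.5 normalized counts in Ly6Chi MoMac (median 391) and from 0 to 274 in Ly6Clo MoMac (median 1.24).

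The chromosome proteins did not pass it either. Mki67, which coats mitotic chromosomes and gives the Ki-67 antigen, was low throughout, at 8.85, 0, 0, 63.8, 36.6, 71.8, 62.2, 0, 0 and 81.2 normalized counts in Ly6Chi MoMac. In Ly6Clo MoMac it stood at 0, 0, 0, 0, 6.62, 4.73, 71.8, 0, 23.1 and 0, so that the subsets overlapped (log2 difference 1.69, SE 1.01, limma adjusted p = 0.438).

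Top2a, the topoisomerase that untangles sister chromatids, was listed at 166, 231, 0, 359, 401, 255, 273, 216, 335 and 564 normalized counts in Ly6Chi MoMac. Its Ly6Clo levels were 190.4, 0, 0, 0, 45.4, 33.1, 85.2, 361, 63.4 and 176. It was higher in Ly6Chi MoMac in 7 mice (log2 difference 2.72, SE 0.94, limma adjusted p = 0.144).

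**Figure D3:**
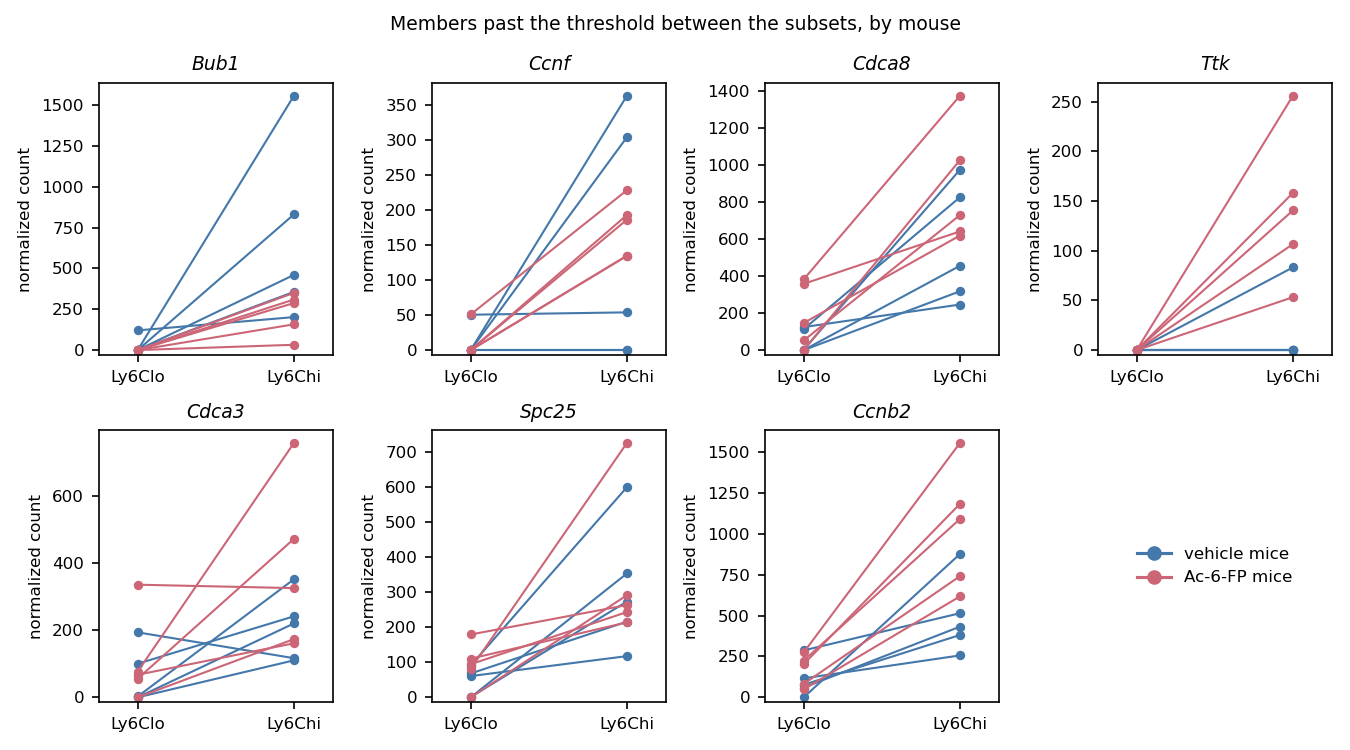
Normalized counts of the 7 members past the threshold between the subsets, in the Ly6Clo and the Ly6Chi library of each mouse, each line being 1 mouse (blue, vehicle; red, Ac-6-FP). Bub1, Cdca8, Spc25 and Ccnb2 were higher in Ly6Chi MoMac of all 10 mice, and Ttk was at 0 in all 10 Ly6Clo libraries.

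Across the 39 members, 16 were higher in Ly6Chi MoMac in 8 or more of the 10 mice, against 8.68% of all genes tested, and 24 had an unadjusted limma p under 0.05, against 16.7% of all genes in either direction. The number of members past the threshold was not stable, since it ranged from 0 with another variance trend, where 68 genes of the table were called higher, to 19 with DESeq2, where 4.11% of all genes were called higher and 6.15% lower, and was 1, Bub1, with edgeR, where 1.25% were called higher and 2.21% lower. It was 2 without mouse 12, 16, 17 or 19, 3 without mouse 18 or 20 and 4 without mouse 11 or 14, where 211 to 258 genes of the whole table were called higher against 303 with all mice, whereas the median difference stayed between 2.65 and 3.04 whichever mouse was left out. Of 23 alternative settings, Bub1 stayed past the threshold in 22, Cdca8 in 19, Ccnf in 14, Ccnb2 in 12, Cdca3 in 9, Ttk in 8 and Spc25 in 7, the call on Spc25 being lost whichever mouse was left out.

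Genes of other parts of the cell cycle were then compared in the same way. Over all genes tested 1.76% rose and 3.44% fell, and these shares also stand beside the other lists compared between the subsets below. Of 72 further mitotic genes tested, 10 rose in Ly6Chi MoMac and 0 fell (median log2 difference 1.65). The largest rises were those of Shcbp1, a midbody protein (5.61), Cdkn3, a phosphatase acting on CDKs (4.98), and the chromosome motor Kif22 (4.94). Of 53 S phase genes, 1 rose, close to the share over all genes, and 0 fell (median 1.30). The gene that rose was Ccne2, a cyclin of the entry into S phase (6.46, SE 1.00, limma adjusted p = 0.00148).

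Of 11 G1 cyclins, kinases and E2F/RB proteins, 2 fell and 0 rose, with a median log2 difference of 0.91, 6 genes above 0 and 5 below. The 2 were the D-type cyclins Ccnd2 and Ccnd1, with log2 differences of -6.77 and -5.87 (limma adjusted p = 0.00177 and 0.00359), while the difference of the remaining D-type cyclin, Ccnd3, was 1.70 (SE 0.93, limma adjusted p = 0.383). Of 10 cell cycle inhibitors, Btg1 and Btg2, antiproliferative proteins, fell, with log2 differences of -0.92 and -0.54, and Cdkn2d, an inhibitor of CDK4 and CDK6, rose by 0.98 (median of the list -0.56).

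Markers of other cells moved with the subsets. Of 10 genes of myeloid progenitors, 4 rose in Ly6Chi MoMac, the granule genes Elane (8.83), Mpo (6.51), Prtn3 (6.17) and Ctsg (4.43), and 3 fell, Flt3, Cd34 and Kit. Their summed level was 1959 to 14551 normalized counts in Ly6Chi libraries, highest in mouse 20 and lowest in mouse 11, and 265 to 2680 in Ly6Clo libraries. Of the same list, Kit and Gfi1 were at 0 in all 10 Ly6Chi libraries and Myb in 9. This does not show absence, since Polr2a was also at 0 in 9 of the 20 libraries. Of 12 T and NK cell genes tested, 9 fell in Ly6Chi MoMac, and the part of any of these cells, or of neutrophils and dendritic cells, in the members' difference was not tested.

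Of the other marker lists, those past the threshold in Ly6Chi against Ly6Clo MoMac were 1 of 10 neutrophil genes higher and 4 lower, 3 of 8 dendritic cell genes lower, 1 of 5 B cell, 1 of 6 hepatocyte, 1 of 5 endothelial and 1 of 6 Kupffer cell genes lower, 4 of 8 genes of Ly6C-low macrophages lower, 0 of 3 stellate cell and 0 of 3 erythroid genes (unadjusted p under 0.05 in 2 and 0), and 2 of 7 sorting markers higher and 2 lower.

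The second question was whether Ac-6-FP changed mitotic genes in Ly6Chi MoMac. Of the 39 members 1 rose, Cenpf, where 0.0638% of all genes tested did, and 0 fell, where 0.0116% did. The group mean was higher with Ac-6-FP in 36 of the 39 members, where it was in 54.3% of all genes tested. Values of 0 made up 31.8% of the members' values with vehicle and 8.21% with Ac-6-FP, and over all genes tested the shares were 42.3% and 30.03%. The median log2 difference was 2.51 against 0.35 over all genes, but 1.07 against 0.10 with edgeR and 1.03 against 0.15 with DESeq2. The summed level was 8489.7 ± 3492 normalized counts (SD, n = 5) in vehicle mice and 15694 ± 5784 (SD, n = 5) in Ac-6-FP mice, and the groups overlapped.

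Cenpf was listed at 0 in all 5 vehicle libraries and at 35.0, 58.1, 70.8, 21.5 and 14.2 normalized counts in those of mice 16 to 20. The mean with Ac-6-FP was 13.9-fold the mean limit that 3 reads set in the vehicle libraries, a limit of counting error only (log2 difference 5.13, SE 0.57, limma adjusted p = 0.0204, exact permutation test p = 0.00794, the smallest that 5 against 5 mice allow). It was above 0 in Ly6Clo MoMac of mice 15 and 19 only, at 56.7 and 23.1 normalized counts. The call was lost without mouse 12, 13, 14 or 15, with edgeR (adjusted p = 0.465) and in a fit that took the number of detected genes into account. In these fits 0 genes of the whole table were called, except without mouse 14, where 4 were called higher and 0 lower. Without mouse 11 the number of members past the threshold was 4, where calls over all genes also rose, from 11 to 122 higher and from 2 to 11 lower.

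Of the 39 members 9 had an unadjusted limma p under 0.05, against 8.73% of all genes, and DESeq2 called 1 higher, Cenpf, where 0.516% of all genes were higher and 0.371% lower. Every Ac-6-FP library stood above every vehicle library for 5 of the 39 members, against 0.968% of all genes. Prc1, which bundles microtubules of the midzone, had levels of 63.7, 2.14, 0, 0 and 0 normalized counts with vehicle and of 313, 192, 396, 211 and 469 with Ac-6-FP. Its difference on the log2(normalized count + 1) scale was the largest of the members, 6.69 (SE 1.20), without passing the threshold (limma adjusted p = 0.184). With edgeR its difference was 4.51, below those of Cenpf (8.54) and Foxm1 (7.41). Kif20a, at 99.1, 168, 359, 0 and 0 with vehicle, stood at 792, 422, 506, 829.3 and 1109.5 with Ac-6-FP (log2 difference 4.92, limma adjusted p = 0.543).

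The others were Cenpf, Ccnb1 and Cks2, whose values are given above. For Cks2 the difference was 1.05 (SE 0.39), in the direction of its Ly6Clo levels, and for Ccnb1 it was 2.80 (SE 1.38), with limma adjusted p-values of 0.543 and 0.619. By role, the median difference on the log2(normalized count + 1) scale was 4.02 for midzone and cytokinesis genes, 3.91 for spindle motors, 0.47 for kinetochore and centromere genes and 1.10 to 2.68 for the other 4 roles. With edgeR the medians were 1.72, 2.39, 0.35 and 0.78 to 1.07, so that the first 2 of these roles changed places. Bub1, Ccna2 and Cenpe were the members with a negative difference, of -1.60, -1.16 and -0.70.

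**Figure D4:**
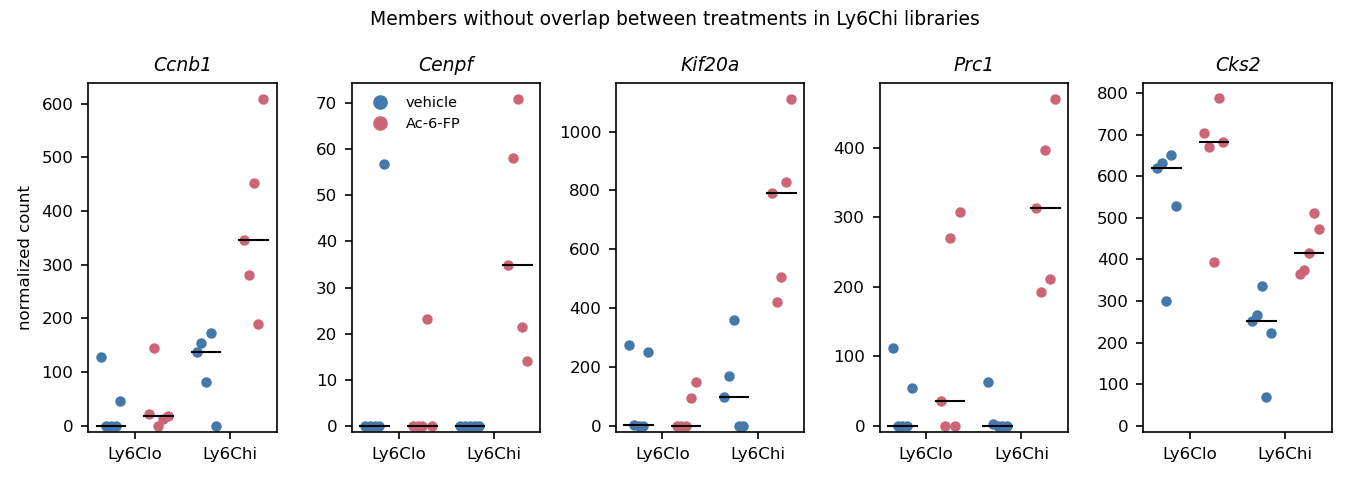
Normalized counts of the 5 members without overlap between treatments in Ly6Chi MoMac, in all 4 groups, each point being 1 mouse (blue, vehicle; red, Ac-6-FP) and each bar a group median. Only Cenpf passed the threshold in Ly6Chi MoMac, and in Ly6Clo MoMac the treatments overlapped for all 5.

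The number of genes detected moved with the treatment as well. Genes above 0 numbered 10793 ± 2267 (SD, n = 5) in Ly6Chi libraries of vehicle mice and 13411 ± 1604 (SD, n = 5) in those of Ac-6-FP mice, and when the fit took that number into account the members' median difference was 1.38, against 0.01 over all genes. Within the vehicle group, mouse 11 had the most genes above 0, 14606, the most members above 0, 37 against 20 to 26 in the other mice, and the lowest summed level of the members. The summed level of the progenitor genes was 3869 to 14551 normalized counts with Ac-6-FP and 1959 to 7265 with vehicle, and 0 of the 10 rose or fell (unadjusted p under 0.05 in 0). The summed level of 8 genes of Ly6C-low macrophages was 4296 to 22881 normalized counts with vehicle, with mouse 11 the highest and the other mice at 9165 or less, and 14264 to 22735 with Ac-6-FP. That of 10 neutrophil genes was 12822 to 15701 with vehicle and 9154 to 12892 with Ac-6-FP. No gene of either list passed the threshold with limma (unadjusted p under 0.05 in 1 and 2) or edgeR, and the part of any of these cells in the members' levels was not tested. Of other cell cycle genes in Ly6Chi MoMac, Pold1, a subunit of DNA polymerase delta, rose with Ac-6-FP by 6.86 (SE 0.77, limma adjusted p = 0.0204), the only one among 53 S phase, 72 further mitotic, 11 G1 and 10 inhibitor genes tested.

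**Figure D5:**
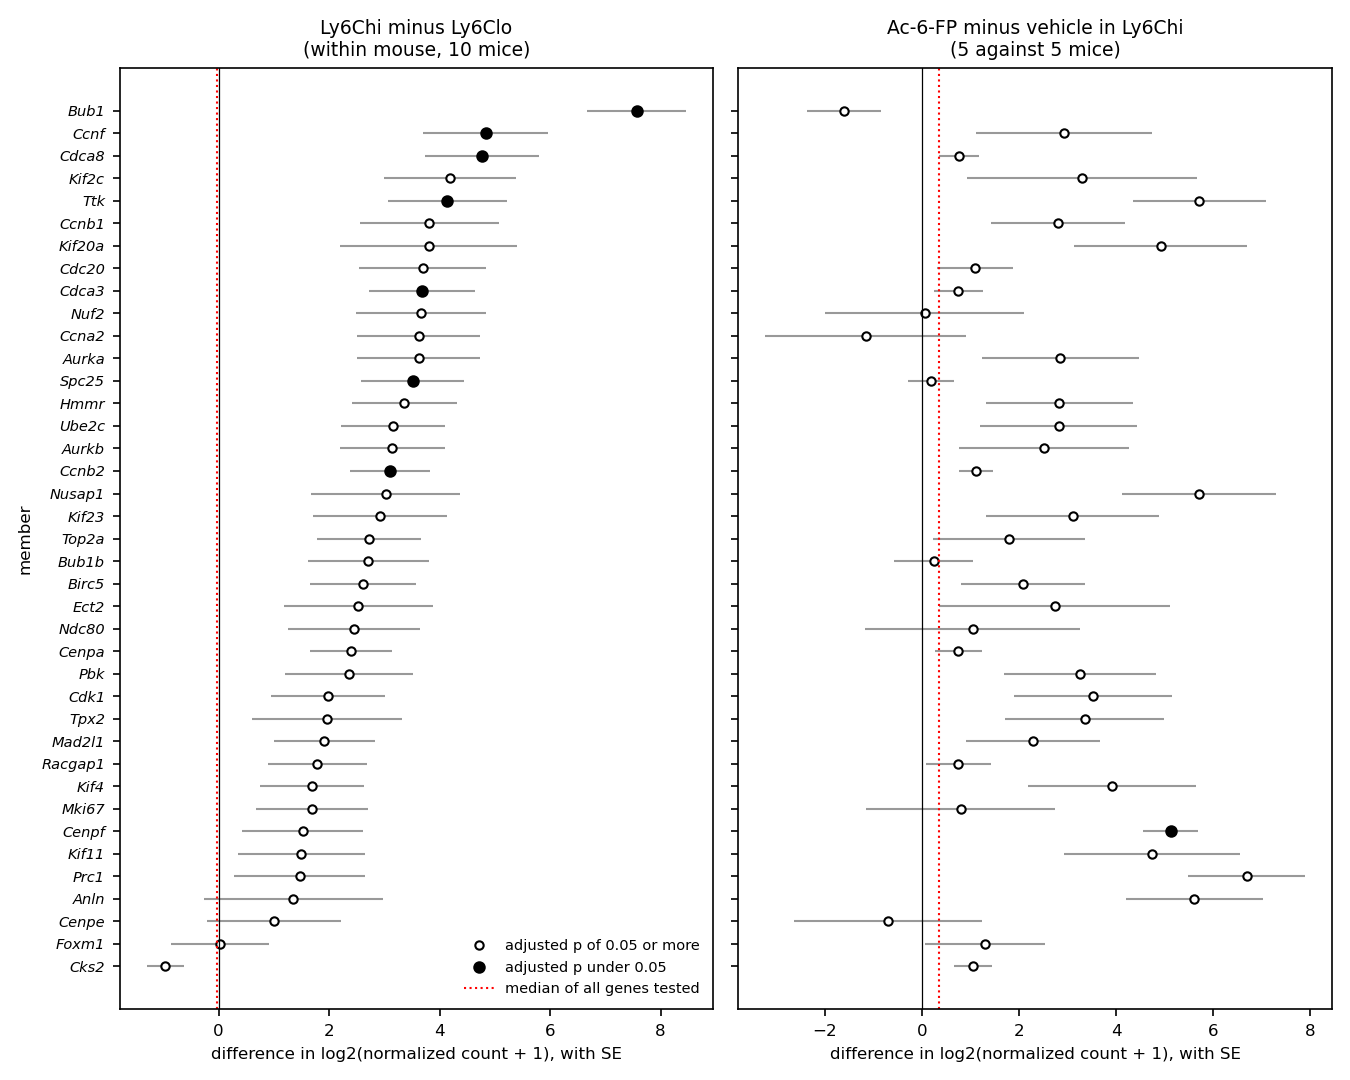
Difference in log2(normalized count + 1) of each of the 39 tested members, with its SE, between the subsets within mouse (left) and between Ac-6-FP and vehicle in Ly6Chi MoMac (right), filled points marking an adjusted p under 0.05 and the dotted line the median of all genes tested. Members lay to the right of the line except Cks2 on the left, while on the right only Cenpf was called and Bub1, with the largest difference on the left, lay below 0.

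In Ly6Clo MoMac 0 of the 39 members passed the threshold with Ac-6-FP, where 0.0522% of all genes tested rose and 0% fell. The count was also 0 with edgeR and with DESeq2, which called 0.58% of all genes higher and 0.0754% lower, and 3 members had an unadjusted limma p under 0.05, against 9.31% of all genes. Values of 0 made up 54.9% of the members' values with vehicle and 39.0% with Ac-6-FP, against 42.2% and 27.1% over all genes tested. The summed level was 3991 ± 1376 normalized counts (SD, n = 5) against 3225 ± 1586 (SD, n = 5), a difference within the spread between mice. On the log2(normalized count + 1) scale the largest differences were those of Aurkb, 4.61 (SE 1.78), and Top2a, 4.08 (SE 1.71), with limma adjusted p-values of 0.528 and 0.530. With edgeR they were 1.03 and 1.52, and larger differences stood elsewhere, as in Ect2 (8.73) and Bub1 (-7.56). The median of the members was 1.27, against 0.91 over all genes, and it was -0.15 when the number of detected genes was taken into account, 0.13 against 0.29 with edgeR and 0.21 against 0.37 with DESeq2. Leaving out a mouse moved it between 0.57, without mouse 13, and 2.06, without mouse 11, and it was 0.59 without mouse 17 and 0.80 without mouse 20. The median over all genes moved as well, to 0.35 without mouse 13, 1.19 without mouse 11, 0.88 without mouse 17, 0.71 without mouse 20 and 0.06 with the number of detected genes. The groups of mice did not separate upward for any member, against 1.29% of all genes tested.

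Finally, it was asked whether Ac-6-FP changed the members more in one subset than in the other, by setting the Ly6Chi to Ly6Clo difference of Ac-6-FP mice against that of vehicle mice. No member differed by limma, as no gene of the table did (0%), 5 of the 39 members had an unadjusted p under 0.05, against 4.87% of all genes, and edgeR called 0 and DESeq2 1 member, Anln, a scaffold of the contractile ring, where DESeq2 called 0.464% of all genes higher and 0.562% lower. The median of the members was 0.79 against -0.27 over all genes, and turned to -0.13 without mouse 15. It was 0.37 without mouse 11 and 1.25 without mouse 12, with medians over all genes of -0.35, -0.33 and -0.34 in these 3 fits. The subset difference was also averaged within each treatment, without a test: its median over the members was 2.55 in vehicle mice and 3.28 in Ac-6-FP mice, with medians over all genes of 0 and -0.10. Mouse by mouse, the median over the 40 members was -0.10, 1.49, 0, 2.69 and 0.18 in vehicle mice 11 to 15, near 0 in mice 11, 13 and 15. In mouse 13, 20 of the 40 members were at 0 in both libraries, 17 were higher and 3 lower in Ly6Chi MoMac. In Ac-6-FP mice 16 to 20 it was 3.45, 1.63, 2.47, 2.46 and 2.42. The average difference was positive for 32 of the 39 tested members with vehicle and for 37 with Ac-6-FP, and the ratio of the summed levels had a median of 3.24 and 4.13.

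Between the treatments the subset difference was larger with Ac-6-FP for 22 of the 39 members and smaller for 17. Bub1 had a subset difference of 7.67 in vehicle and of 7.46 in Ac-6-FP mice, positive in all 5 mice of each. Ttk had differences of 1.28 and 6.99, Prc1 of -0.98 and 3.91, Kif20a of 0.93 and 6.67 and Cenpf of -1.17 and 4.21. In the other direction, Cenpe had differences of 2.59 and -0.60, Bub1b of 4.17 and 1.25, Top2a of 3.85 and 1.58 and Cdca8 of 5.82 and 3.71. None of these contrasts between treatments passed the threshold.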

How the data were processed

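RNA of 20 libraries, Ly6Chi and Ly6Clo MoMac of each of 10 mice, was made into cDNA with a low-input kit and sequenced in 75-base reads. The authors aligned reads with STAR 2.4.0 to mm10, counted those on constitutive regions of FAST DB genes and divided them by DESeq2 size factors, and the deposited values are such normalized counts, a signal that is never below 0. How reads matching several places were treated, and whether strand was used, is not given in the sources used here. Of all values above 0, 99.9992% were whole multiples of a library's smallest step (tolerance 0.006 of a normalized count), from which reads were recovered: 5693049 to 18682437 on genes per library, with 3 reads as the limit that a value of 0 allows. Limits of this kind cover counting error only.

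Genes with a mean normalized count of at least 10 in a group were tested (17248) on log2(normalized count + 1) with limma 3.58.1 (R 4.3.3), with a variance trend over the mean level and Benjamini-Hochberg adjustment over all genes, at an adjusted p under 0.05. Subsets were compared within mouse, since both libraries of a number came from 1 liver, and treatments between 5 and 5 mice within each subset. The residuals of libraries of the same mouse correlated at 0.00334 to 0.250 (median 0.0338), those of other mice at -0.00496. No 2 libraries of a group agreed within sampling noise (lowest chi-square per degree of freedom 65.0). Exact tests were two-sided sign flips within mouse or relabellings of mice. Alternatives were edgeR 4.0.16 and DESeq2 1.42.0 on recovered reads, pseudocounts of 0.1 and 10, no filter or one at 100, TMM and quantile scaling, the number of detected genes as covariate, unpaired groups, another variance trend and leaving out each mouse. Leaving out mice 11 and 13 together, edgeR without mouse 15, and the sum without Cks2 were chosen after seeing the data. The limma and edgeR fits, but not DESeq2, were tested on simulated counts. These used the same dispersion for all genes and no added values of 0, so that they do not cover members often listed at 0.

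The 41 members and the other lists were chosen with earlier results of these data known. All members are accounted for by role. Values in every library are given for members past the threshold and for Mki67, Top2a, Cdk1, Ccna2, Ccnb1, Ccnb2, Aurkb, Birc5 and Foxm1. Cks2, Prc1 and Kif20a were added after their values were seen, as was Incenp. Of the other lists, counts and the largest changes are given. Promoter letters were searched in RefSeq windows (GRCm38.p6) from 250 bases before to 50 after the start.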

Additional observations from a re-analysis of the deposited data

Results flagged for a closer look

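Values far from the other 4 libraries of their group, by Dixon's test at the 95% level, are given here for the members named with all their values and for the summed level. They came from 74 groups checked, of which chance flags about 1 in 20, and for 11 of the 17 values below the other 4 libraries of the group were all listed at 0.

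The summed level of the 40 members was 25880.5 normalized counts in the Ly6Chi library of mouse 20, far above the other Ac-6-FP mice. Spc25 stood at 726.52 and Foxm1 at 92.4 normalized counts in the same library. Among Ly6Chi vehicle libraries, Ttk was above 0 in mouse 11 alone, at 83.19.

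In Ly6Clo vehicle MoMac, mouse 11 stood apart for 6 members. Its normalized counts were 390.87 for Aurkb, 120.48 for Bub1, 17.47 for Ccna2, 50.58 for Ccnf, 75.41 for Foxm1 and 190.37 for Top2a. Mouse 15 was the only one of that group above 0 for Cenpf, at 56.71, and for Mki67, at 6.62. In Ly6Clo Ac-6-FP MoMac, the values apart from the rest were 1.71 for Ccna2 and 23.13 for Cenpf in mouse 19, 145.82 for Ccnb1 in mouse 17, 51.02 for Ccnf in mouse 20 and 335.91 for Cdca3 in mouse 18.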

How the results depend on the processing

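The number of members higher in Ly6Chi than in Ly6Clo MoMac, 7 in the fit reported, was 3 and 13 with pseudocounts of 0.1 and 10, 4 without the filter, 14 with quantile scaling, 1 with edgeR (also without mouse 15), 19 with DESeq2 (and 1 lower), 13 with the number of detected genes as covariate and 0 with the variance trend taken over the mean difference. The genes of the whole table called higher moved as well, from 303 to 259 and 364 with these pseudocounts, 246 without the filter, 491 with quantile scaling, 979 with the covariate and 68 with the other trend. The members' count was 2 to 7 when a mouse was left out, and the median difference stayed between 1.90 and 3.44 under all of these. Foxm1, listed at 0 in nearly all libraries, turned from 0.029 to -0.056 with quantile scaling, and ranged from -0.70 to 0.73 when a mouse was left out. With the subsets as unpaired groups, without the replicate block, 7 members were past the threshold and the median was 2.72, and no other call on the members changed. For Ac-6-FP in Ly6Chi MoMac, the 1 member called became 0 with a pseudocount of 10, no filter, a filter at 100, quantile scaling, edgeR (also without mouse 15) and the covariate, 3 without mice 11 and 13, and 0 to 4 when a mouse was left out. Over all genes 11 were called higher and 2 lower in the fit reported. These calls became 10 and 2 with that pseudocount, 4 and 1 without the filter and 4 and 0 with the filter at 100. They were 0 in both directions with quantile scaling, edgeR (also without mouse 15) and the covariate. Without mice 11 and 13 they were 66 and 4, and without a single mouse the genes called higher numbered 0 to 122. The median of 2.51 became 1.07 with edgeR, 0.97 with edgeR without mouse 15, 1.03 with DESeq2 and 1.38 with the covariate. DESeq2 called 1 member in the comparison of the treatment effect between subsets, where the unpaired fit gave a median of 0.79. For Ac-6-FP in Ly6Clo MoMac the median of 1.27 ranged from 0.57 to 2.06 when a mouse was left out. The cause of these changes was not tested. The Ly6Clo library of mouse 13 could be left out only with its pair, which equals leaving out mouse 13, and takes no part in the Ly6Chi comparison. A value of 0 allows up to 3 reads, although values of 1 or 2 reads also occur, so that a level in this range can be missed at this depth.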
